A study of Mus musculus with 16 samples.

Results

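The S100 and annexin genes encode calcium-binding proteins, and 28 of the 23234 features in each deposited table carry such a name. They were taken by gene symbol alone, as S100a genes with a number, S100b, S100g, S100z and the numbered Anxa genes. There are 16 S100 genes and 12 annexin genes, and all 28 symbols were found in RefSeq. The tissue was cut by laser from frozen sections of male wild-type embryos of the outbred CD1 mouse. In embryos of E10.5 the dorsal and the ventral part of the cloaca, the shared outlet of gut and urinary tract, were captured. At E13.5 the hindgut and rectal epithelium stands for the dorsal side and the epithelium of the pelvic urethra for the ventral side. Each of the 4 groups holds 4 libraries, not pooled per the labels, which give the dorsal and ventral library of an embryo the same name. No animal was treated or carried an altered allele. The study was made toward an atlas of gene expression in the genital tubercle and urethra.

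S100 proteins are small proteins with a pair of EF-hand calcium sites that mostly act as dimers. When calcium enters the cell they open a surface that grips partner proteins. Annexins are a separate family that binds acidic phospholipids of membranes when calcium is present, and several of them are gripped at their free end by a particular S100 dimer. In epithelia the families are known for membrane organization and repair, for the cortical cytoskeleton and, in the intestine, for carrying calcium through the cell.

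The authors deposited FPKM, which is a fragment count divided by transcript length and by the mapped fragments. Ranks, shares of summed FPKM and ratios between genes below rest on that scaling by length. How well it holds between short and long transcripts, in RNA amplified from sub-nanogram input, was not tested. Each table gives 1 value per region, the authors' own combination of the 4 libraries. So no spread between embryos, p-value or depth can be given, and every difference below lacks a check by replicates. The tables of the 2 ages were normalized separately, and levels at E10.5 and E13.5 are set side by side without a test. A difference below is that of log2(FPKM + 1), ventral minus dorsal. It was counted at 1 or more, which is 2-fold on that scale, among features with at least 1 FPKM in either region, and it understates the change of low genes. In such bulk tissue, fewer cells of a type and less RNA per cell cannot be told apart. The epithelial markers Epcam, Cdh1, Krt8, Krt18, Krt19, Cldn6, Cldn7 and Esrp1 were all present in every group. Of the 5 hindgut markers with at least 1 FPKM in a region at E10.5, 3 were at least 2-fold higher dorsally. Vil1 went the other way, at 1.83 FPKM dorsally and 5.99 ventrally (1.30), while Cdx2 stood at 15.5 FPKM dorsally. The hindgut marker list summed to 27.0 FPKM dorsally and 7.24 ventrally at E10.5, and to 370.0 in hindgut against 2.71 in urethra. The joint feature of Lgals4 and Lgals6 made up 268 FPKM of the hindgut sum. Each of the 7 hindgut markers that passed the minimum at E13.5 was at least 2-fold higher in hindgut. Within the list Hnf4a stood at 34.5 FPKM in hindgut, but Cdx2, another defining gene of hindgut, was listed at 0 there. An exact 0 in such a table can be a failed estimate, so a gene listed at 0 here and below is not shown to be absent.

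S100a11 and, at E13.5, S100a6 made up most of the summed S100 and annexin level. S100a11, whose protein binds annexin A1, stood at 164 FPKM in the dorsal cloaca and 660.1 in the ventral cloaca, and at 1442 FPKM in hindgut and 1312 in urethra. It was the highest of all members in the E10.5 regions and in urethra. S100a6, which encodes calcyclin, stood at 0.069 FPKM in the dorsal cloaca and 4.54 in the ventral cloaca, and at 1628 FPKM in hindgut and 287 in urethra. In hindgut it ranked 76 among all features and stood above S100a11. All 28 members together summed to 274 FPKM in the dorsal and 784 in the ventral cloaca, and to 4264 in hindgut and 2477 in urethra. Those sums are 0.0632%, 0.185%, 0.602% and 0.374% of the FPKM of all features in the same order. S100a11 alone held 84.2% of the members' sum in the ventral cloaca, while S100a6 held 38.2% of it in hindgut.

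**Figure D1:**
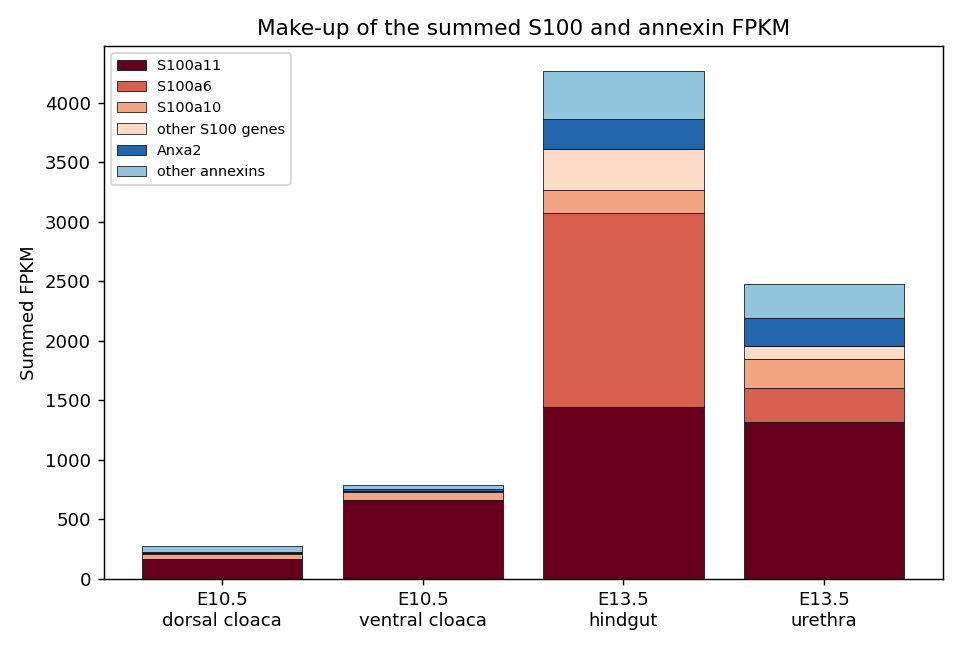
Summed FPKM (vertical axis) of the 28 S100 and annexin genes in each region and age, as stacked bars of the authors' values, with no error bars because 1 value per region was deposited. S100a11 fills most of the E10.5 bars, and S100a6 adds 1628 FPKM to the hindgut bar and 287 to the urethra bar.

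Of the 28 members, 20 reached 1 FPKM in at least 1 of the 4 values. At E10.5 there were 14 such members, and at E13.5 the same 14 and 6 more. The 6 were S100a13, S100a14, S100a4, S100g, Anxa8 and Anxa13. Listed levels were higher in E13.5 hindgut than in the dorsal cloaca for 19 members, and higher in E13.5 urethra than in the ventral cloaca for 23. The 23 include S100b, S100a2, S100a3 and S100a8, which stayed under 1 FPKM in all values. The sum over all features was also larger at E13.5, at 708752 FPKM in hindgut against 433416 in the dorsal cloaca. It was 661939 in urethra against 424724 in the ventral cloaca. How many of all features were higher at E13.5 was not counted. Anxa8, an annexin gene of stratified epithelia, was listed at 0 in the dorsal cloaca and at 0.61 FPKM in the ventral cloaca, and stood at 116 FPKM in hindgut and 79.8 in urethra. Its span is shared with 2 other features, Antxrl and A630023A22Rik, which were listed at 0 in all 4 values. S100a14 was listed at 0 in both E10.5 regions and stood at 132 FPKM in hindgut and 34.2 in urethra. Anxa9 went the other way, with its higher value at E10.5.

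**Figure D2:**
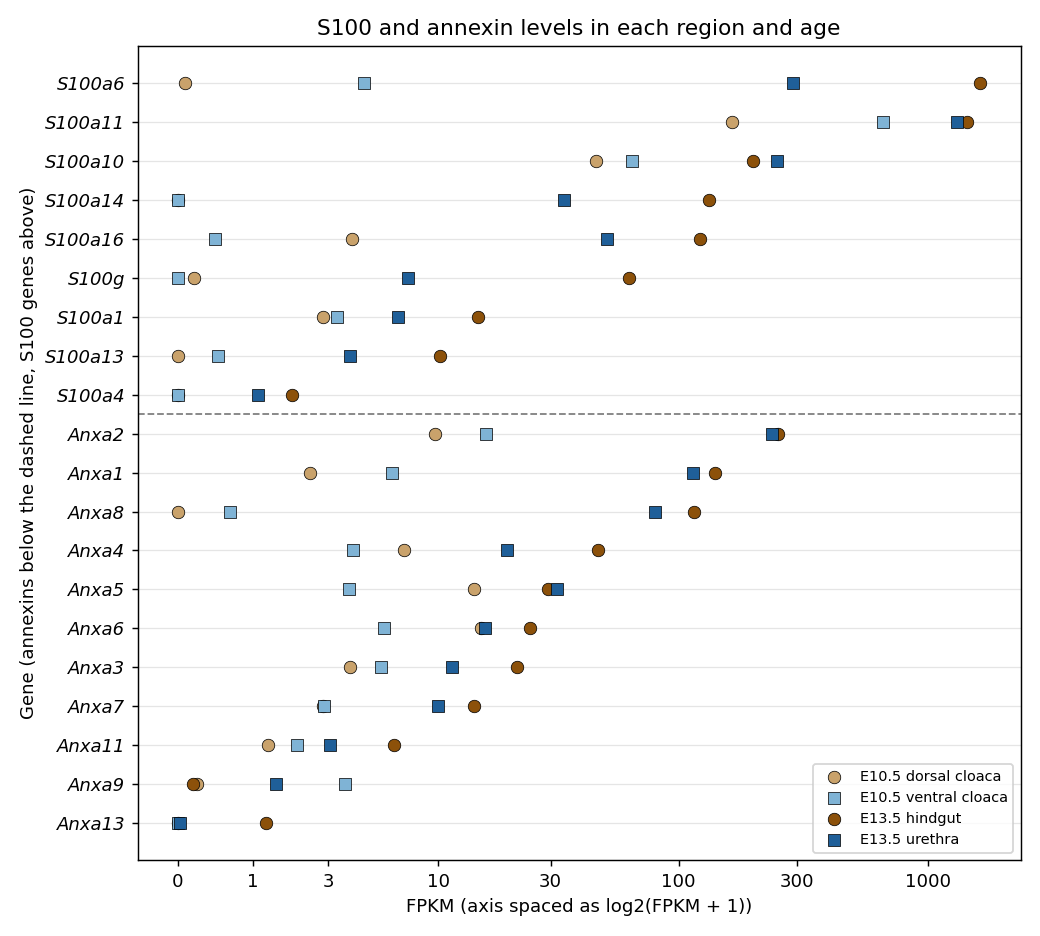
FPKM (horizontal axis, spaced as log2(FPKM + 1)) of the 20 members that reached 1 FPKM in any value, with 1 marker for each region and age and no error bars. Where only 1 E10.5 marker shows at 0, as for S100a14, S100a4 and Anxa13, both E10.5 values are 0; S100a6 covers the widest range, from 0.069 to 1628 FPKM.

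The comparison at E10.5 asks which members differ between the ventral cloaca, which forms urethra, and the dorsal cloaca, which forms hindgut. S100a11 was 4.03-fold higher in FPKM on the ventral side, with a difference of 2.00. S100a6, Anxa9 and Anxa1 were also higher ventrally, and S100a16, Anxa5 and Anxa6 were higher dorsally. Of the 14 members with 1 FPKM or more in a region, 4 were at least 2-fold higher ventrally, where 10.6% of all 12379 features were. A further 3 were at least 2-fold higher dorsally, where 9.62% of all features were. The other 7 were within 2-fold. The median difference of the 14 was 0.39, beside 0.04 over all features. Taken over all 28 members it was 0, and 9 of them had no FPKM in either region.

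Among the S100 genes, S100a6 stood at 0.069 FPKM dorsally and 4.54 ventrally, a difference of 2.37. S100a16, an EF-hand gene broadly active in epithelia, stood at 3.98 FPKM dorsally and 0.40 ventrally, a difference of -1.83. S100a10, whose protein has lost calcium binding and holds annexin A2, stood at 46.1 and 64.4 FPKM, a difference of 0.47. S100a1, best known from heart and skeletal muscle, stood at 2.80 FPKM dorsally and 3.33 ventrally. The S100 differences at E10.5 thus rest on a few genes, and only S100a11 and S100a10 passed 10 FPKM in either region.

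The annexins at E10.5 were all under 20 FPKM. Anxa9, an annexin whose human protein lacks working calcium sites in its core, stood at 0.19 FPKM dorsally and 3.66 ventrally, a difference of 1.97. Its span is shared with Fam63a, which stood at 1.81 and 2.62 FPKM. Anxa1, the gene of a protein known for damping inflammation, stood at 2.37 FPKM dorsally and 6.20 ventrally, a difference of 1.10 and the smallest one counted at this age. Anxa5, whose protein binds exposed phosphatidylserine, stood at 14.3 FPKM dorsally and 3.82 ventrally, a difference of -1.66. Anxa6, the gene of the largest annexin, stood at 15.3 FPKM dorsally and 5.70 ventrally, a difference of -1.28. The nearest uncounted members were Anxa4 at 7.06 FPKM dorsally and 4.01 ventrally (-0.69), and Anxa2 at 9.69 and 16.1 (0.68). Anxa3 at 3.90 and 5.47 FPKM, Anxa11 at 1.29 and 1.99 and Anxa7 at 2.81 and 2.83 differed by 0.40 or less.

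Many of these E10.5 levels are low. With a pseudocount of 5 in place of 1, S100a11 at 1.98 and Anxa5 at -1.13 stayed past 2-fold, while S100a6 came to 0.91, Anxa9 to 0.74, Anxa1 to 0.61, S100a16 to -0.73 and Anxa6 to -0.92. Markers of other epithelia differed too. Each of the 7 urethral and urothelial markers that passed the minimum was at least 2-fold higher there, and the list summed to 49.1 FPKM dorsally and 333 ventrally. Surface ectoderm and epidermis markers summed to 18.7 and 88.7 FPKM, of which Perp made up 7.15 and 73.1. Of the 5 that passed the minimum 3 were past 2-fold ventrally and 1 dorsally, Grhl3 at 7.08 and 1.52 FPKM, with Krt77, Dsg3, Dsc3 and Krtdap listed at 0 in both regions. Red cell markers summed to 886 and 1183 FPKM, mesenchymal markers to 107 and 109, smooth muscle markers to 13.3 and 5.54, macrophage markers to 7.91 and 3.60, mesothelial and nephric markers to 5.40 and 3.77 and endothelial markers to 0.63 and 2.07. The part of these tissues in the S100 and annexin differences was not tested.

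The comparison at E13.5 asks the same of urethra and hindgut. Here the members leaned to the hindgut: S100g, S100a6, S100a14, S100a16, S100a13, S100a1, Anxa4 and Anxa13 were all at least 2-fold higher there, and Anxa9 alone in urethra. That is 8 of the 20 members that passed the minimum for hindgut, where 4.59% of all 12369 features were counted, and 1 of 20 for urethra, where 4.16% were. The other 11 were within 2-fold. The median difference was -0.73 over the 20, -1.20 over the 9 S100 genes among them and -0.53 over the 11 annexins, beside 0.01 over all features. It was -0.37 over all 28 members.

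S100g, which encodes calbindin-D9k, the vitamin D regulated calcium carrier of gut epithelium, had the widest difference. It was listed at 0.16 FPKM in the dorsal cloaca and 0 in the ventral cloaca, and stood at 62.8 FPKM in hindgut and 7.35 in urethra. That is 8.55-fold in FPKM and a difference of -2.93. The tables give it a merged span with 6 other genes of chromosome X, of which Rbbp7 stood at 96.3 FPKM in hindgut and 94.1 in urethra and Bc1 at 3.61 and 0.61. S100a6 was 5.66-fold higher in hindgut, a difference of -2.50. S100a14 was 3.85-fold higher in hindgut (-1.92), and S100a16, at 122 FPKM in hindgut and 51.1 in urethra, 2.38-fold higher (-1.24).

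S100a13, whose protein is known for a part in the release of FGF1, was listed at 0 in the dorsal cloaca and 0.45 FPKM in the ventral cloaca. It stood at 10.2 FPKM in hindgut and 3.87 in urethra, a difference of -1.20. S100a1 stood at 14.8 and 6.61 FPKM, a difference of -1.06. It was the member closest to the limit among those counted. S100a4, the gene of a protein known from motile fibroblasts and tumour cells, stood at 1.85 and 1.10 FPKM, and was listed at 0 in both E10.5 regions. The highest S100 gene of the urethra hardly separated the regions, since S100a11 differed by -0.14. S100a10 was the 1 S100 gene above the minimum with more in urethra, at 248 FPKM against 199 in hindgut, a difference of 0.32.

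Among annexins at E13.5, Anxa4, the gene of an annexin typical of glandular epithelia, stood at 46.9 FPKM in hindgut and 19.8 in urethra, a difference of -1.21. Anxa13, known for its place in intestinal epithelium, stood at 1.24 FPKM in hindgut and 0.015 in urethra (-1.14), and was listed at 0 in both E10.5 regions. Anxa9 stood at 0.15 FPKM in hindgut and 1.47 in urethra (1.11), beside 8.38 and 6.74 for Fam63a, which shares its span. The most abundant annexins were close in the regions. Anxa2 stood at 251 FPKM in hindgut and 237 in urethra (-0.08), and Anxa1 at 140.5 and 114 (-0.30). The span of Anxa2 also holds Mir3109, which was listed at 18.5 FPKM in hindgut and 0 in urethra.

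Anxa3 at 21.7 FPKM in hindgut and 11.5 in urethra (-0.87) and Anxa11 at 6.34 and 3.06 (-0.85) lay just short of the limit. Anxa11 came past 2-fold with a pseudocount of 0.1. Anxa6 at 24.7 and 15.9 FPKM, Anxa7, which encodes the membrane fusion protein synexin, at 14.3 and 9.96 and Anxa8 at 116 and 79.8 also had their higher value in hindgut. Anxa5 stood at 29.3 FPKM in hindgut and 31.8 in urethra. In all, 17 of the 20 members were higher in hindgut by any size, where 5970 of all 12369 features were. Anxa5, S100a10 and Anxa9 were the exceptions. Under quantile normalization Anxa2, at 0.09, also had its higher value in urethra.

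Epithelial markers leaned the same way at E13.5. The 8 markers summed to 3099 FPKM in hindgut and 1688 in urethra (median difference -0.80), and 2 of the 8, Krt19 (-1.53) and Cldn7 (-1.24), were at least 2-fold higher in hindgut. At E10.5 they summed to 1872 FPKM dorsally and 1729 ventrally, and none was counted. Macrophage markers summed to 2.93 FPKM in hindgut and 29.6 in urethra, red cell markers to 40.5 and 88.5, surface ectoderm markers to 746 and 784 and urethral markers to 184 and 773. Krt15 made up 517 and 474 FPKM of the surface ectoderm sums. Of the 8 ectoderm markers that passed the minimum, 3 were past 2-fold in urethra and 0 in hindgut (median 0.44). Of the 8 urethral markers, 6 were past 2-fold in urethra and 0 in hindgut, while Upk2 stood at 50.5 FPKM in hindgut and 43.0 in urethra. Mesenchymal markers summed to 127 and 118 FPKM, with 3 of 10 past 2-fold in hindgut and 1 in urethra (median -0.56). Smooth muscle markers summed to 2.15 and 4.39 FPKM, endothelial markers to 0.32 and 0.28 and mesothelial and nephric markers to 4.03 and 0.52. The part of all these tissues in the hindgut lean of the members was not tested. With a pseudocount of 5, S100g (-2.46), S100a6 (-2.48), S100a14 (-1.80), S100a16 (-1.18) and Anxa4 (-1.07) stayed past 2-fold. S100a13 (-0.78), S100a1 (-0.77), Anxa13 (-0.32) and Anxa9 (0.33) did not.

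Set side by side, 3 members were counted at both ages. S100a6 was higher ventrally at E10.5 (2.37) and higher in hindgut at E13.5 (-2.50). No other of the 28 members was counted in opposite directions. Anxa9 was counted ventrally at both ages (1.97 and 1.11), and S100a16 dorsally at both (-1.83 and -1.24). S100a11 and Anxa1 were counted ventrally at E10.5 and lay within 2-fold at E13.5, as did Anxa5 and Anxa6 from the dorsal side. Of the 14 members above the minimum at both ages, 8 had their higher value ventrally at E10.5 and in hindgut at E13.5, and 5 had the same sign at both. Among the 8, Anxa7 at E10.5 (0.01) turned to -0.02 with upper-quartile scaling and -0.06 with quantile normalization, and Anxa2 at E13.5 (-0.08) turned to 0.09 with quantile normalization. Over all features that passed the minimum, 6484 of 12379 were higher ventrally at E10.5 and 5970 of 12369 higher in hindgut at E13.5. How many of all features changed sides between the ages was not counted. No difference between the ages was tested.

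**Figure D3:**
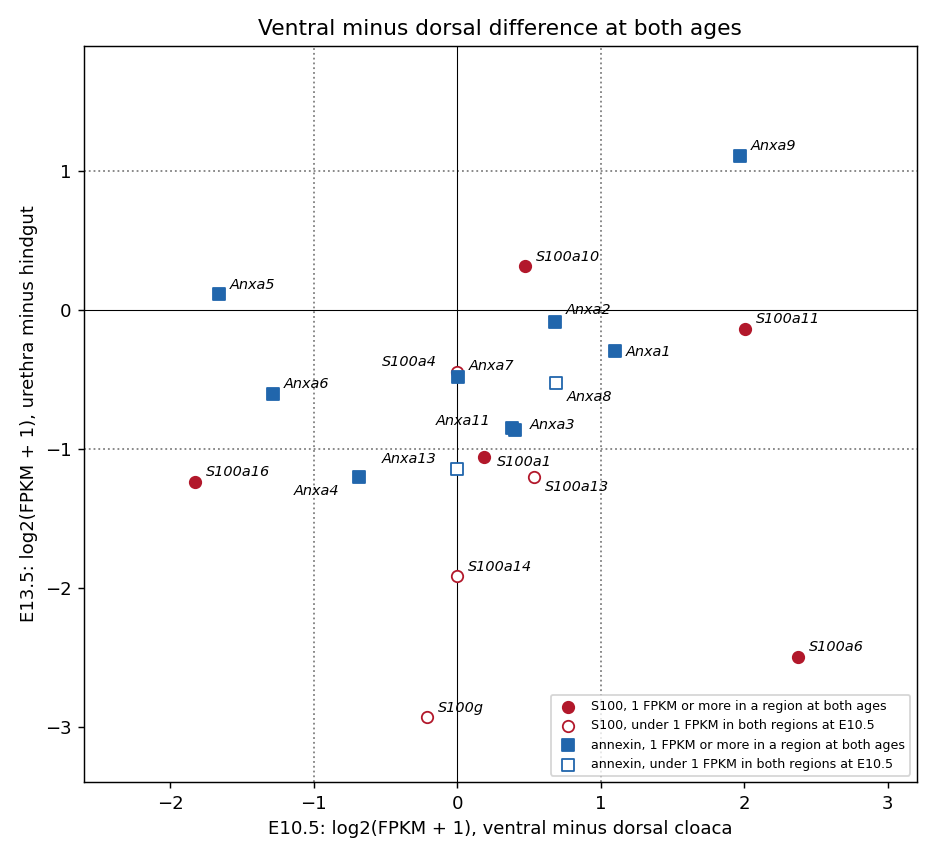
Difference of log2(FPKM + 1), ventral minus dorsal, at E10.5 (horizontal axis) and E13.5 (vertical axis) for 20 S100 (red circles) and annexin (blue squares) genes; open markers were under 1 FPKM in both regions at E10.5, and dotted lines mark a difference of 1. Most markers lie below the horizontal zero line, Anxa9 stands alone at the upper right at 1.97 and 1.11, and S100a6 at the lower right at 2.37 and -2.50.

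Most S100 genes lie near each other. On mm10, 13 of the 16 S100 genes lie on chromosome 3, 11 of them within 185 kb from 90511034 to 90695691, and S100a11 and S100a10 2.82 Mb further on, from 93520496 to 93564645. The 4 adjacent genes S100a1, S100a13, S100a14 and S100a16 lie at one end of the dense stretch. At E13.5 each was at least 2-fold higher in hindgut, where 4.59% of all 12369 features were. With a pseudocount of 5, S100a1 (-0.77) and S100a13 (-0.78) were within 2-fold. At E10.5, S100a16 alone of the 4 was counted (-1.83). S100a6, further along, and S100g, on chromosome X, differed more at E13.5 (-2.50 and -2.93). The part of position in these differences was not tested. The 4 genes that follow S100a16 were low, S100a4 among them at 1.85 FPKM in hindgut. S100a2 and S100a3 were listed at 0 in hindgut and at 0.065 and 0.28 FPKM in urethra, and S100a5 was listed at 0 in all values. S100a6 (XLOC_012804, 90612894 to 90614414) follows S100a5 directly, and S100a8 and S100a9 beyond it were listed at 0 in hindgut. Neighbours thus stood between 0 and 1628 FPKM in the same tissue. Whether strand was used in counting: not given in the sources used here.

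**Figure D4:**
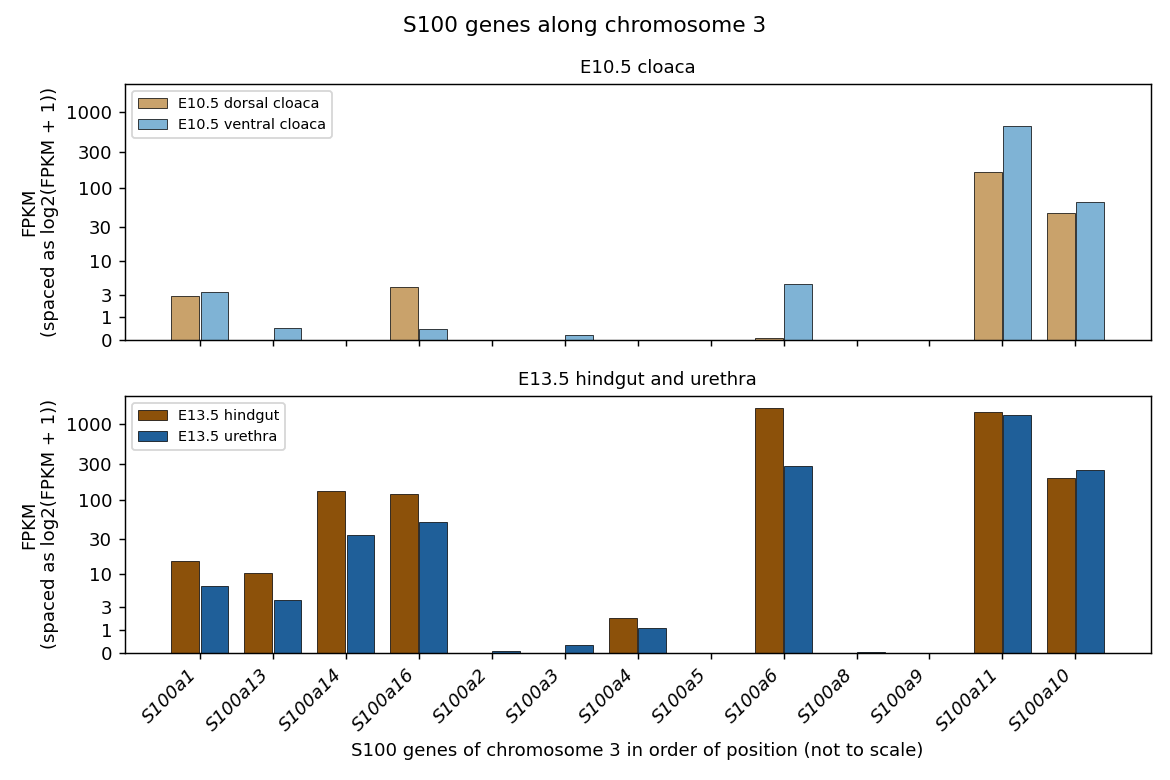
FPKM (vertical axes, bars from 0, spaced as log2(FPKM + 1)) of the 13 S100 genes of chromosome 3 in order of position, at E10.5 (top) and E13.5 (bottom), with no error bars. At E13.5 the left 4 genes and S100a6 have taller hindgut bars, the genes from S100a2 to S100a5, S100a8 and S100a9 stay under 2 FPKM, and S100a11 has bars of 1442 and 1312 FPKM.

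S100a1 and S100a13 are read away from each other, with 104 bases between their starts in the tables, and both were higher in hindgut at E13.5. The stretch between these starts is shown, although RefSeq places the outermost start of S100a13 at 90514233, so that the stretch lies within that RefSeq gene. The RefSeq spans of S100a1 and S100a13 overlap from 90514233 to 90514330, just before the stretch. The stretch is given with the 250 bases before the start of S100a6, S100g and Anxa4, examples of the other genes higher in hindgut. The same length is given for S100a11, which was near equal in the E13.5 regions. The letters of all are from RefSeq on GRCm38.p6, the assembly of mm10, written 5′ to 3′ on the gene's strand (plus strand for the stretch between S100a1 and S100a13). Capitals mark matches on either strand to the TATA box (TATAAA), the GC box (GGGCGG), the AP-1 site (TGANTCA), an E-box (CACGTG) or the CCAAT box, and no matches overlap.
S100a1 to S100a13, chr3:90514331-90514434, plus strand: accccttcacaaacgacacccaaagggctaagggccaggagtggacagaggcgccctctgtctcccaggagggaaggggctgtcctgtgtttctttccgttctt
S100a6, chr3:90612644-90612893, plus strand: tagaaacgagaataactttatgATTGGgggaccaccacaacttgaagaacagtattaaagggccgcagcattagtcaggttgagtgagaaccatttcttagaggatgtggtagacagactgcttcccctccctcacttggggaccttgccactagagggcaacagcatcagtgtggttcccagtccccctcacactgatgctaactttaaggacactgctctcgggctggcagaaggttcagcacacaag
S100g, chrX:162964600-162964849, minus strand: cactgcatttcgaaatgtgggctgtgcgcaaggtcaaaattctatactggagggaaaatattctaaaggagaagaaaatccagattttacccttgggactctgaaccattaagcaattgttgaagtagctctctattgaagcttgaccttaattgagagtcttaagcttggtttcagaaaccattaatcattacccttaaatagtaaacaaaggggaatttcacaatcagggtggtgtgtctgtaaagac
Anxa4, chr6:86793585-86793834, minus strand: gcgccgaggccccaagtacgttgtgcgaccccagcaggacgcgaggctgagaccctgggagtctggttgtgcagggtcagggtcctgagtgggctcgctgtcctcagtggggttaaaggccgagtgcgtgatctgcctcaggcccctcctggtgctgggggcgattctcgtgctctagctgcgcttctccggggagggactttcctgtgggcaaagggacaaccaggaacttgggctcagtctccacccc
S100a11, chr3:93520246-93520495, plus strand: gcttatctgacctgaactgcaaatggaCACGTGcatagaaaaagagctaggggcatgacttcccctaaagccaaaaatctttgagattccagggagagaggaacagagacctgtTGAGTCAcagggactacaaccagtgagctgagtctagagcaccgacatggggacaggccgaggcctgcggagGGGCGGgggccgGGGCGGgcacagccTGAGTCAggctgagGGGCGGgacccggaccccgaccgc

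The S100a11 window held 3 matches to the GC box, 2 to the AP-1 site and 1 to the E-box. The S100a6 window held 1 CCAAT match on its other strand, and the remaining windows held none of the 5 motifs. Of all 32851 RefSeq windows of this length, 32.7% held the GC box, 6.75% the AP-1 site, 6.02% the E-box, 33.8% the CCAAT box and 12.4% the TATA box. The 22 members with a window had 29 windows, of which 8 held the GC box, 4 the AP-1 site, 2 the E-box, 5 the CCAAT box and 6 the TATA box. Counted by member, with a match in any of its windows, the GC box was held by 7 of the 22. These are matches of letters and say nothing of binding.

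Partner genes can be set beside the members they are known to bind. S100a10 and Anxa2, whose proteins join in a complex at the cell membrane, differed in their ratio. S100a10 was at 4.76 times the FPKM of Anxa2 in the dorsal cloaca and at 0.79 times it in hindgut. On the ventral side S100a10 was the higher gene at both ages, at 64.4 FPKM against 16.1 at E10.5, and at 1.05 times Anxa2 in urethra. S100a11 stood 69.3-fold above Anxa1 in the dorsal and 106-fold in the ventral cloaca, and 10.3-fold and 11.5-fold above it in hindgut and urethra. S100a6 stood 257-fold above Anxa11 in hindgut and 93.9-fold in urethra. Ahnak, a giant scaffold held by the S100a10 and Anxa2 complex, stood at 2.38 FPKM dorsally and 13.6 ventrally at E10.5, and at 68.8 in hindgut and 67.0 in urethra.

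In a list of 29 measured partner and receptor genes, 21 passed the minimum at E10.5 (median 0.13). Where 10.6% of all features were past 2-fold ventrally and 9.62% dorsally, 3 and 2 of the 21 genes were. Besides Ahnak (2.11) and, dorsally, the urokinase gene Plau (-1.13), these were Tgm1, a protein crosslinking enzyme gene, at 2.65 FPKM ventrally and listed at 0 dorsally, the membrane repair gene Dysf at 0.11 FPKM dorsally and 1.63 ventrally, and Plat, the gene of tissue plasminogen activator, at 7.01 and 1.61. At E13.5 the urethra had 1 of 20 past 2-fold and the hindgut 2 (median -0.07), where 4.16% and 4.59% of all features were past it. Capn1, the gene of a calcium-activated protease, stood at 145 FPKM in hindgut and 56.5 in urethra (-1.34). Gca, which encodes grancalcin, stood at 5.36 and 1.37 FPKM (-1.42) and the caveolar gene Cav1 at 0.40 and 2.26 (1.22). The EF-hand gene Sri stood at 28.8 and 15.5 FPKM (-0.85). Ager, a receptor gene for secreted S100 proteins, stood at 1.03 and 0.69 FPKM at E10.5 and at 1.27 and 1.32 at E13.5, and Fpr2, a receptor gene for annexin A1, was listed at 0 throughout.

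In the list of 30 other EF-hand genes, most of those that passed the minimum were within 2-fold, 18 of 22 at E10.5 and 16 of 21 at E13.5. Past 2-fold at E10.5 were 3 of 22 ventrally and 1 dorsally (median 0.00), where 10.6% and 9.62% of all features were. The genes were Vsnl1 at 0.10 FPKM dorsally and 2.57 ventrally, Efhd1 at 0 and 2.18, Efhd2 at 7.28 and 17.2 and Ncs1 at 10.8 and 4.08. The urethra had 2 of 21 past 2-fold at E13.5 and the hindgut 3 (median -0.10), where 4.16% and 4.59% of all features were past it. Calml4, a calmodulin-like gene, stood at 41.2 FPKM in hindgut and 0.71 in urethra (-4.63), Efhd2 at 45.3 and 19.0 (-1.21), Cib1 at 53.1 and 23.7 (-1.13), the myosin light chain gene Myl9 at 6.29 and 19.9 (1.52), and Vsnl1 at 0.012 and 1.07 (1.03). Efhd2, like S100a6, was counted ventrally at E10.5 and in hindgut at E13.5.

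Copines and synaptotagmin-like proteins bind membranes through C2 domains in place of an annexin core. At E10.5 their genes counted 2 of 11 for the ventral cloaca and 2 for the dorsal cloaca (median 0.10), where 10.6% and 9.62% of all features were counted. For E13.5 the counts were 0 of 11 for urethra and 1 for hindgut (median -0.03), where 4.16% and 4.59% of all features were counted. Syt1 stood at 0.20 FPKM dorsally and 4.21 ventrally, Sytl5 at 2.40 and 6.21, Cpne2 at 2.79 and 0.069 and Esyt1 at 7.24 and 3.07. At E13.5 Syt7, a calcium sensor of membrane fusion, stood at 10.4 FPKM in hindgut and 3.28 in urethra (-1.41), and Cpne8 at 46.6 and 85.8 (0.87).

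The epidermal differentiation complex lies on chromosome 3 with the S100 genes and holds genes of the cornified skin surface. At E13.5, 2 of the 4 listed genes that passed the minimum were past 2-fold in urethra and 0 in hindgut, where 4.16% and 4.59% of all features were. With a pseudocount of 5, and with a minimum of 5 FPKM, 1 was counted in urethra. Lor, the loricrin gene, stood at 0.59 FPKM in the dorsal and 7.99 in the ventral cloaca (2.50), and at 22.3 in hindgut and 74.6 in urethra (1.70). Them5 stood at 0.56 FPKM in hindgut and 2.35 in urethra (1.11). Sprr1a at 6.53 and 5.78 FPKM and Them4 at 2.76 and 2.39 had their higher value in hindgut. At E10.5, where 10.6% of all features were counted ventrally and 9.62% dorsally, 1 of 3 was higher ventrally and 1 dorsally. The latter was Tchh, at 1.05 FPKM dorsally and listed at 0 ventrally. Of the 23 features of this list, 17 were listed at 0 in both regions at E10.5 and 9 at E13.5.

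The 8 members that stayed under 1 FPKM were S100b, S100z, S100a2, S100a3, S100a5, S100a8, S100a9 and Anxa10. S100z, S100a5, S100a9 and Anxa10 were listed at 0 in all 4 values. S100a8, which with S100a9 forms calprotectin of neutrophils, was listed at 0.030 FPKM in urethra and at 0 elsewhere. The neutrophil and mast cell genes Elane, Ngp, Ltf, Camp and Cpa3 were likewise listed at 0 in all values, and Kit made up nearly all of that list's sum. S100b, a marker of glia and Schwann cells, stood at 0.17 FPKM dorsally and 0.017 ventrally at E10.5, and at 0.057 in hindgut and 0.38 in urethra.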

How the data were processed

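RNA from 16 laser-captured libraries (4 groups of 4) was amplified from sub-nanogram input, per the labels' protocols. FPKM values were deposited by the authors in 2 tables with 2 value columns each (dorsal and ventral), per the file headers. The submitters' processing notes name Cufflinks 2.2.1 and mm10. Aligner, annotation, strand setting and the way the 4 libraries were combined: not given in the sources used here. The age of a table rests on its name.

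The test planned per library was not possible, so the deposited values were described with a pseudocount of 1, a minimum of 1 FPKM in either region and a limit of 1 on the log2 difference. The size rule was tested on simulated data. Low FPKM times exon length, for genes with 1 transcript, was checked for whole reads. At most 24.3% lay within 0.1 of a whole number of a common step, where 20% would by chance, so the depth is unknown. Spans overlap another feature for Anxa8, Anxa9, Anxa2 and S100g, whose values are less certain. RefSeq also holds a pseudogene of S100a11 on chromosome 12 with no feature in the tables. Positions are the tables' spans with 1 added to the start. Members and gene lists were chosen with earlier results of these data known. Members at 1 FPKM or more in any value were named with all values. From each list of partner and related genes, up to 4 genes per age with the largest difference were named. Plau, Ager, Fpr2, Sprr1a, the E13.5 value of Vsnl1 and single marker genes were named after their values were seen. Alternatives were other pseudocounts, minimums and scalings. Python 3.11.15, pandas 2.3.3 and numpy 2.4.6 were used. The neuron and Schwann cell marker list is not reported here.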

Additional observations from a re-analysis of the deposited data

Results flagged for a closer look

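S100a6 had opposite directions at the ages, with a difference of 2.37 at E10.5, higher ventrally, and -2.50 at E13.5, higher in hindgut. The E10.5 value rests on 0.069 and 4.54 FPKM. How many of all features had opposite directions past 2-fold was not counted. The difference between the ages was not tested, since each is the authors' value for 1 region.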

How the results depend on the processing

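No paired analysis was possible because the tables hold 1 value per region and none per embryo, and leaving out each replicate was not run for the same reason. Upper-quartile scaling and quantile normalization left all 34 values of named members on their side of 2-fold. A pseudocount of 0.1 moved 1, Anxa11 at E13.5, and all features higher in urethra to 864. A pseudocount of 5 moved 9 of 34 to within 2-fold. Member counts then came to 1 ventrally and 1 dorsally at E10.5, and at E13.5 to 0 for urethra and 5 for hindgut, with medians of 0.19 and -0.50. Under it all features came to 401 and 325 at E10.5 and 173 and 227 at E13.5. The 4 lists of partner and related genes together then came to 2 ventrally, 0 dorsally, 2 in urethra and 4 in hindgut. At the main settings these lists came to 9, 6, 5 and 6 in the same order.

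With a minimum of 5 FPKM, 2 members were counted ventrally and 0 in urethra, and the E13.5 median was -0.85. All features then came to 823 ventrally, 691 dorsally and 298 in urethra. The lists of partner and related genes came to 4 ventrally, 3 dorsally, 2 in urethra and 6 in hindgut. With no minimum the members' medians were 0 and -0.37. With a mean of at least 1 FPKM, and without joint names or overlapping spans, 0 members were counted in urethra. Leaving out those features gave medians of 0.28 and -0.86. No member past 2-fold turned its sign, but Anxa7 at E10.5 and Anxa2 at E13.5, both near 0, did under another scaling. Depth is unknown and sets no limit that could be given.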
